A study of Mus musculus with 6 samples.

Results

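The 42 genes described here encode the constitutive proteasome of the mouse, its dedicated assembly chaperones and 2 of its regulators, and they were listed by name, by their place in the complex and not by a threshold on a measured value. They comprise 14 subunits of the 20S core particle, 18 subunits of the 19S regulatory particle, 8 assembly chaperones, 1 activator and 1 inhibitor. Sem1, a small subunit of the 19S particle, was not listed and is given with the related genes. Probes were assigned to them through the transcript accession on the array, and the subunits that form the immunoproteasome were left out. All 42 genes were among the 21056 genes and transcripts tested, 14206 of which carry a gene symbol. They were read by 58 probes, every gene was well above background on each of the 6 arrays, and no member lacked a value on any array.

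RNA levels in livers of mice aged 5 weeks were measured on 6 one-colour Agilent arrays, 3 from sMaf CKO mice, in which small Maf genes were knocked out in the liver alone, and 3 from wild-type control mice. Both genotypes had a mixed background of 129Sv/J, C57BL/6J, and ICR. The labels name neither the small Maf genes that were deleted, nor the Cre driver, nor the sex of the mice, and the sources used here do not state whether a sample pools several mice. The submitters call the RNA samples independent of each other, and the p-values measure only the spread between these samples.

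The proteasome degrades proteins tagged with ubiquitin. Its barrel-shaped 20S core is built from outer rings of alpha subunits, which form the gate, and inner rings of beta subunits, some of which carry the proteolytic sites. The 19S particle caps the barrel: its base unfolds substrates with a ring of ATPases and its lid removes the ubiquitin chain. Transcription of the subunit genes is known to be raised when the proteasome is impaired, through NRF1 (Nfe2l1), a bZIP factor that binds antioxidant response elements together with a small Maf protein. MafF, MafG and MafK lack a transactivation domain of their own and act as the DNA-binding partners of NRF1 and related factors. In liver, loss of NRF1 is known to disturb proteasome gene expression, so the comparison asks whether proteasome transcripts differ in level when small Maf genes are deleted.

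Levels are log2 signals minus the 75th percentile of their array, so 0 is the signal at that percentile of the probes, and differences are sMaf CKO minus control. The signal at that percentile was 484.4 to 960.5 on sMaf CKO arrays and 483.4 to 609.3 on control arrays. Probes well above background made up 58.03% to 73.56% of an array. Arrays of different genotypes correlated at r = 0.953 to 0.979 over probes and arrays of the same genotype at r = 0.967 to 0.984. Slide 1 carried replicates 1 and 2 of each genotype, and slide 2 carried the third of each. Mafg had log2 levels of -2.97, -4.36 and -0.76 in sMaf CKO livers, against 1.88, 1.87 and 2.23 in control livers, a difference of -4.69 (SE 0.79, limma adjusted p = 0.0534, and 0.0207 with slide as a block). Maff differed by 0.15 (adjusted p = 0.911) and Mafk by 0.21 (adjusted p = 0.759), and whether any of these probes lies in a deleted part is not known. Of 16 hepatocyte markers, 15 were tested and all of these were above background.

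Proteasome transcripts were lower in sMaf CKO liver than in control liver in 39 of 42 cases, by modest amounts, and no single one passed the test across all genes. A negative difference was found for 54.7% of all genes tested. The median difference of the 42 members was -0.43 on the log2 scale, which is 74.2% of the control level, with a quartile range of -0.56 to -0.28. The median over all genes tested was -0.05. The extremes were Psmd1, a scaffold of the 19S base, at -0.80 (57.3% of control) and Psmd8, a lid subunit, at 0.22. In bulk liver, fewer cells of a type and less RNA per cell cannot be told apart.

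None of the 42 members passed an adjusted p under 0.05 in limma's test, which 0.541% of all genes did. At an unadjusted p under 0.05 there were 13 members, all lower in sMaf CKO liver, against 8.10% of all genes lower and 16.8% in either direction. For 18 members every sMaf CKO array lay below every control array, and 11.6% of all genes tested did the same (22.9% had the groups apart in either direction). No member had the groups apart in the other direction, which held for 11.3% of all genes. With slide as a block no member passed an adjusted p under 0.05 either (1.61% of all genes did), 17 members were lower at an unadjusted p under 0.05 (10.1% of all genes), and the lowest adjusted p was 0.0902, for Psmd1. The share of members lower therefore exceeded the share of all genes by each of these descriptive counts, while the number that passed the adjusted test was 0.

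**Figure D1:**
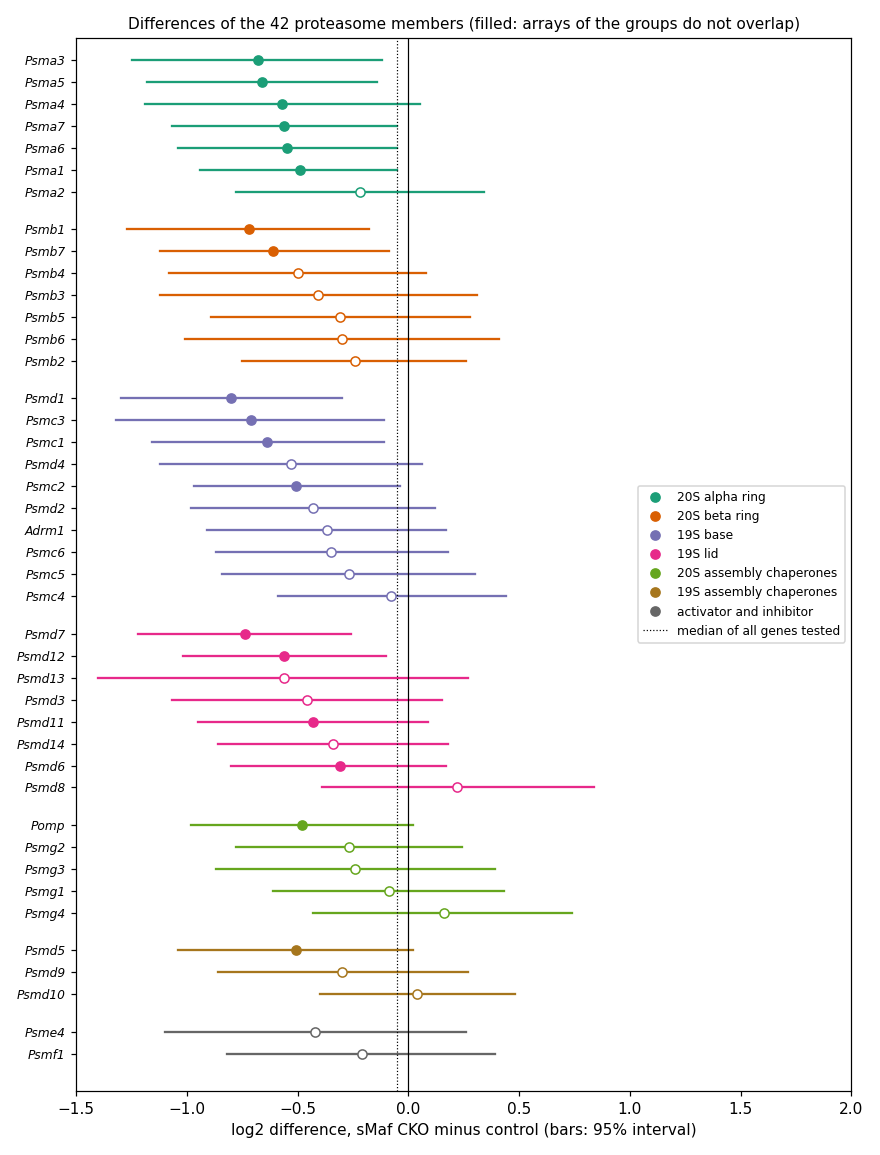
Log2 difference (sMaf CKO minus control) of each of the 42 proteasome members, grouped by role, with its 95% interval, where filled circles mark the 18 members whose sMaf CKO arrays all lie below the control arrays and the dotted line is the median of all genes tested (-0.05). Circles lie left of 0 for 39 members and range from -0.80 for Psmd1 to 0.22 for Psmd8; 36 members lie left of 0 under quantile normalization and 29 under spike-in scaling.

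The size of the difference depended on the array. Set against the control mean of each gene, the median deviation of the members was -0.59, -0.37 and -0.29 on sMaf CKO arrays 1, 2 and 3, and 0.22, -0.13 and -0.02 on control arrays 1, 2 and 3. All 3 sMaf CKO arrays were thus below all 3 control arrays, with sMaf CKO replicate 1 and control replicate 1 furthest apart. sMaf CKO replicate 1 was the lowest of the 6 arrays for 25 members (29.0% of all genes), and control replicate 1 was the highest for 32 members (21.8% of all genes). Within slide 1, 39 members were lower (54.9% of all genes) with a median of -0.52, and within slide 2, where 1 array is set against 1, 32 members were lower (48.7% of all genes) with a median of -0.28. The median was -0.35 without control replicate 1 and -0.36 without sMaf CKO replicate 1, and 37 members kept a negative difference with each array left out in turn.

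The signal of a gene and the scaling of the arrays moved with the difference. When all genes were ranked by mean signal and split into 5 classes of like size, 34 members fell in the brightest class and 8 in the next. All genes of the brightest class had a median difference of -0.16 with 68.6% lower, and its 34 members had a median of -0.47 with 33 lower. Quantile normalization brought the brightest class as a whole to 0.02 and its members to -0.21. Spike-in scaling added 0.301 to every difference, so that the median of all genes became 0.25 and that of the members -0.13, with 29 members and 28.4% of all genes lower. The members thus lay 0.38 below all genes under the 75th percentile scale and 0.21 below them after quantile normalization. Under spike-in scaling the gap is 0.38 by construction, because an equal shift of every difference leaves it unchanged. How far signal and scaling account for the difference was not tested.

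**Figure D2:**
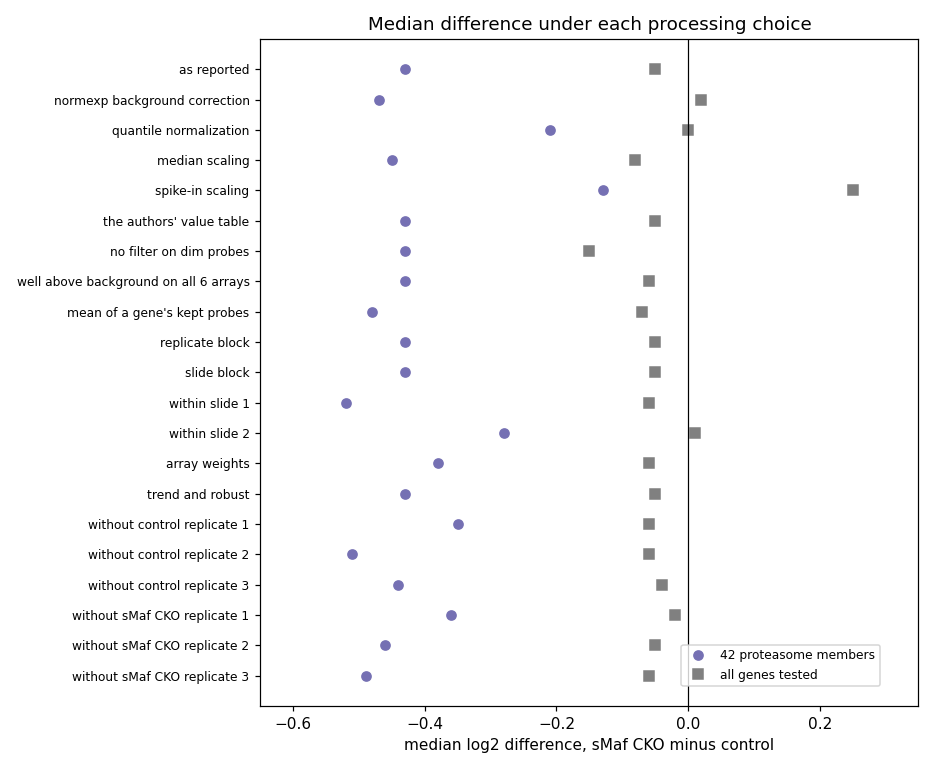
Median log2 difference (sMaf CKO minus control) of the 42 proteasome members (circles) and of all genes tested (squares) under each processing choice. The median of the members is negative in every row, from -0.52 within slide 1 to -0.13 under spike-in scaling, where all genes are at 0.25.

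Promoters were examined because small Maf dimers bind antioxidant response elements. RefSeq promoters on GRCm38.p6, from 250 bases before to 50 bases after the gene start, were held for 35 of the 42 members (37 promoters, since Psmc2 and Psma6 have several). The core of the element, TGACNNNGC, was searched on both strands and found in 7 of the 37 member promoters (18.9%), against 12.4% of all 32851 promoters. The 7 promoters around the match are printed because they are the only ones of the 37 with a core match, 5′ to 3′ in the direction of the gene, with the match in capitals. In Psmc6, Psmd12 and Psme4 the match lies on the opposite strand and reads as its reverse complement. The stretches are chr14:54617994-54618082 for Psmb5 (minus strand), chr11:70525308-70525396 for Psmb6, chr14:45329574-45329645 for Psmc6, chr2:180171386-180171474 for Adrm1, chr11:107479278-107479329 for Psmd12, chr5:123228119-123228207 for Psmd9 and chr11:30771728-30771816 for Psme4, all on the plus strand but for Psmb5.
Psmb5: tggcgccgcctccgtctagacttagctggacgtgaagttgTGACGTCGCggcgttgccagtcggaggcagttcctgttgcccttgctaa
Psmb6: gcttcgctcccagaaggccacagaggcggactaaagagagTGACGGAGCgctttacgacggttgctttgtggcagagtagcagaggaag
Psmc6: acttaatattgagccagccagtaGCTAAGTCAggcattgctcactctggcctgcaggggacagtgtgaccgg
Adrm1: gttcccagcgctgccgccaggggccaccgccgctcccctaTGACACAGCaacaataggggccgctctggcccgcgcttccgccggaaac
Psmd12: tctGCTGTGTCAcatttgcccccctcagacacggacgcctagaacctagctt
Psmd9: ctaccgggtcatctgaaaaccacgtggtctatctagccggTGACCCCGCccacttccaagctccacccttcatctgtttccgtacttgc
Psme4: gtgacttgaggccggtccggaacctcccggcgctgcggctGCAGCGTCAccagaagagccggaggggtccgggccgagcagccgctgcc

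The match began 7 to 247 bases before the annotated start, nearest in Psme4 and furthest in Psmd12. The 7 members with a match had a median difference of -0.35, all negative, and 1 of them, Psmd12, had its groups apart. The 28 members without one had a median of -0.45, with 25 negative and 13 with their groups apart. Among the 35 members searched, those that hold the core were thus not the lowest in sMaf CKO liver. No promoter was held for Psmd7 (-0.74), Psmb1 (-0.72), Psmc3 (-0.71), Psmb7 (-0.61), Psmd3 (-0.46), Psmg2 (-0.27) and Psmb2 (-0.24). Whether these hold the core is not known, and no sequence beyond the promoters was searched. A match is a description of these letters, not a bound site. The palindromic Maf recognition element, which can overlap the core, was in no member promoter. Over all promoters, its strict form was in 1 and its form with any central bases in 13, of which 3 also held the core. The CCAAT box was in 12 member promoters (32.4%, against 37.4% of all), and the GC box GGGCGG was in 22 (59.5%, against 35.7% of all).

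The member with the lowest difference, Psmd1, held no core match. Its promoter, chr1:86064369-86064668 on the plus strand of GRCm38.p6 from RefSeq, is printed for comparison with the 7 above, with a pair of overlapping GC boxes in capitals.
Psmd1: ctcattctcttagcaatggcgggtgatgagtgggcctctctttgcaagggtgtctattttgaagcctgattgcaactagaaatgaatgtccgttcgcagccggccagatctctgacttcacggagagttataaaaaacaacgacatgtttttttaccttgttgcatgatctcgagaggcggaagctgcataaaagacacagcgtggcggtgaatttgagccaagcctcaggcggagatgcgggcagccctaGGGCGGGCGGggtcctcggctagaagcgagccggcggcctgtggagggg

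In the alpha ring of the 20S core all 7 genes were lower in sMaf CKO liver, 6 of them with the groups apart, with a median difference of -0.56 (67.7% of control). Its median deviations were -0.46, -0.52 and -0.58 on the sMaf CKO arrays, against 0.22, -0.10 and -0.04 on the control arrays. On slide 1 the median was -0.56 and on slide 2 it was -0.51, and it was -0.34 under quantile normalization and -0.26 under spike-in scaling. Psma3, a subunit of that ring, had log2 levels of 2.86, 2.70 and 2.27 in sMaf CKO livers, against 3.51, 3.25 and 3.12 in control livers. All sMaf CKO arrays lay below all control arrays, and the difference was -0.68 (SE 0.24, adjusted p = 0.229). Psma5, of the same ring, had 5.02, 5.22 and 5.24 in sMaf CKO livers, against 6.07, 5.55 and 5.84 in control livers. Its groups were also apart, with a difference of -0.66 (SE 0.22, adjusted p = 0.210). Psma4 (-0.57), Psma7 (-0.56), Psma6 (-0.55) and Psma1 (-0.49) likewise had their groups apart. Psma2 was the exception: its groups overlapped and its difference was -0.22, turning to 0.14 under quantile normalization.

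All 7 beta ring genes were lower, with a median of -0.41 (75.5% of control), and 2 had their groups apart. Its values varied with the array: the median was -0.62 on slide 1 and -0.22 on slide 2. It was -0.22 when sMaf CKO replicate 1 was left out and -0.25 when control replicate 1 was left out, against -0.62 when sMaf CKO replicate 3 was, and it was -0.13 under quantile normalization and -0.10 under spike-in scaling. Psmb1, a structural subunit without a proteolytic site, had log2 levels of 3.83, 4.01 and 4.0 in sMaf CKO livers, against 5.04, 4.51 and 4.46 in control livers. Its groups were apart, and it differed by -0.72 (SE 0.24, adjusted p = 0.201). Psmb7, which carries the trypsin-like site, had 2.75, 3.06 and 3.13 in sMaf CKO livers, against 3.79, 3.44 and 3.52 in control livers. Its groups were apart too, with a difference of -0.61 (SE 0.22, adjusted p = 0.238). The other catalytic subunits overlapped between the groups: Psmb5, of the chymotrypsin-like site, differed by -0.31 and Psmb6, of the caspase-like site, by -0.30, and both promoters held the core match. Within slide 2 they were at 0.03 and 0.36. The structural subunits Psmb4 (-0.50), Psmb3 (-0.41) and Psmb2 (-0.24) also overlapped.

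The 10 genes of the 19S base were all lower, with a median of -0.47 (72.3% of control), and 4 had their groups apart. On slide 1 the median was -0.53 and on slide 2 it was -0.34. It was -0.27 under quantile normalization and -0.17 under spike-in scaling. Psmd1, the scaffold that anchors the ubiquitin receptor Adrm1, had log2 levels of 2.19, 2.18 and 1.80 in sMaf CKO livers, against 2.90, 2.93 and 2.74 in control livers. The groups were apart, with means of 2.06 ± 0.22 and 2.86 ± 0.11 (SD, n = 3 each) in sMaf CKO and control livers, and the limma difference was -0.80 (SE 0.21, 95% interval -1.30 to -0.30, adjusted p = 0.151). It ranged from -0.87 to -0.67 with each array left out in turn and was -0.94 within slide 2. Psmc1, an ATPase of the unfolding ring, had 3.72, 3.79 and 3.75 in sMaf CKO livers, against 4.73, 4.16 and 4.28 in control livers. The sMaf CKO arrays lay close together below a wider control group, with a difference of -0.64 (SE 0.23, adjusted p = 0.229). Among the other ATPases, Psmc3 (-0.71) and Psmc2 (-0.51) had their groups apart, whereas Psmc6 (-0.35), Psmc5 (-0.27) and Psmc4 (-0.08) overlapped. Psmc4 had the opposite sign after quantile normalization (0.08) and after spike-in scaling (0.22). The ubiquitin receptors Psmd4 (-0.53) and Adrm1 (-0.37) and the scaffold Psmd2 (-0.43), which docks shuttle factors, overlapped as well. On their other probes, Adrm1 read -0.58 with the groups overlapping and Psmd2 read -0.69 with them apart. The other probes of Psmc5 (-0.60) and Psmc4 (-0.21) had the groups overlapping.

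Of the 8 lid genes 7 were lower, 4 with the groups apart, and the median was -0.44 (73.5% of control), -0.53 on slide 1, -0.33 on slide 2, -0.19 under quantile normalization and -0.14 under spike-in scaling. Psmd7, the inactive partner of the lid deubiquitinase, had log2 levels of 2.42, 2.75 and 2.52 in sMaf CKO livers, against 3.41, 3.20 and 3.27 in control livers. Its groups were apart, with a difference of -0.74 (SE 0.21, adjusted p = 0.159) and -1.01 on its other probe. Psmd12, a lid scaffold whose promoter held the core match, had 4.42, 4.65 and 4.64 in sMaf CKO livers, against 5.12, 5.10 and 5.17 in control livers. The control arrays lay within a narrow band above the sMaf CKO arrays, and the difference was -0.56 (SE 0.20, adjusted p = 0.229). Its 3 probes read -0.56, -0.08 and -0.94, the first being the one used. Psmd8, a scaffold of the same kind, went the other way, with 3.60, 3.22 and 3.06 in sMaf CKO livers, against 3.47, 2.86 and 2.88 in control livers. Its groups overlapped, and the difference was 0.22 (SE 0.26, adjusted p = 0.711). The remaining scaffolds were Psmd11 (-0.43) and Psmd6 (-0.31), whose groups were apart, and Psmd13 (-0.56) and Psmd3 (-0.46), whose groups overlapped. Psmd14, the deubiquitinase itself, differed by -0.34, and by -0.60 on its other probe, with overlapping groups on both. The widest interval of any member was that of Psmd13, from -1.40 to 0.27.

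**Figure D3:**
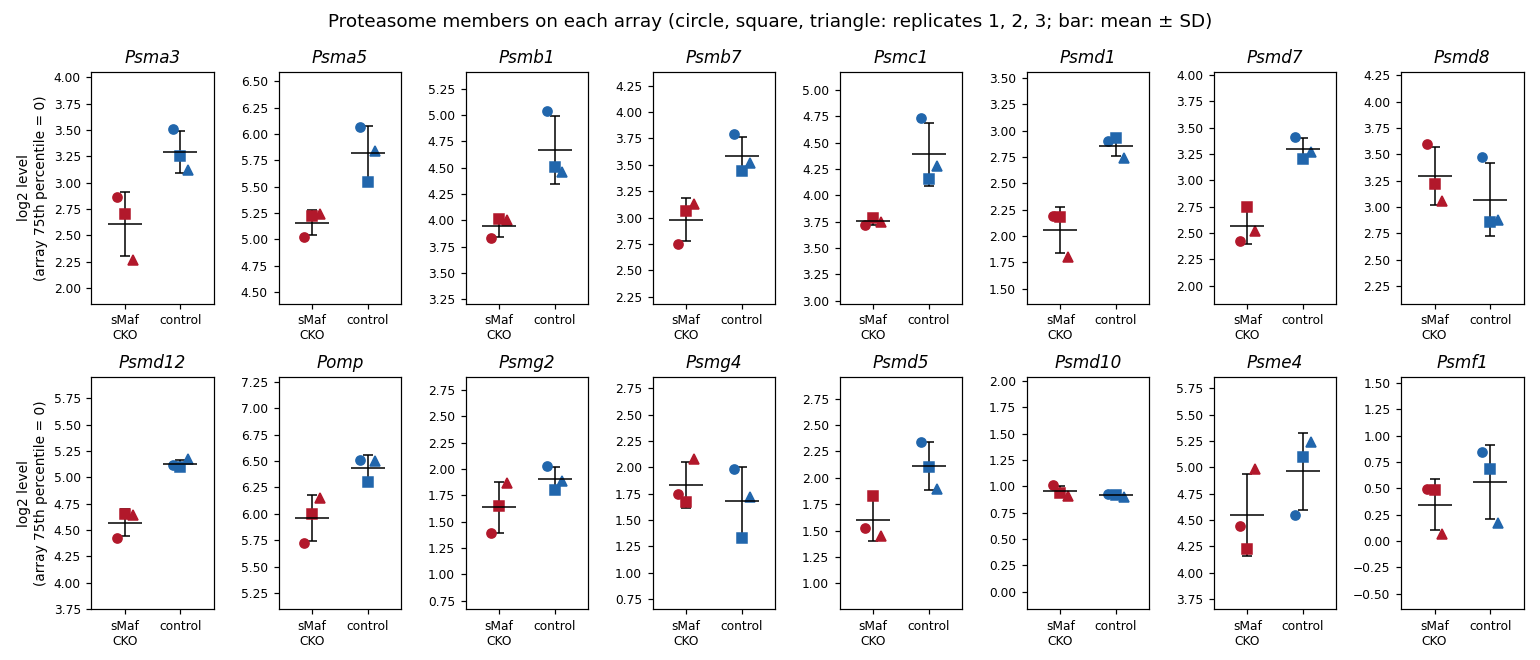
Log2 levels (75th percentile of the array at 0) of 16 proteasome members in sMaf CKO (red, left) and control (blue, right) livers, where each symbol is an array, bars give mean ± SD (n = 3) and all panels span the same number of log2 units. In Psmd1 the sMaf CKO arrays lie at 1.80 to 2.19, below control arrays at 2.74 to 2.93, whereas in Psmd8 and Psmg4 the groups overlap.

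The assembly chaperones had smaller differences than the subunits, with no test of that contrast: 6 of 8 were lower with a median of -0.26, against 31 of 32 subunits with a median of -0.50. The chaperones were also dimmer, with mean log2 levels of 2.12 to 2.67 over the arrays, against 3.51 to 4.28 for the subunits. Members of the brightest signal class had a median of -0.47 and those of the next class -0.26. Role was not separated from signal. Spike-in scaling shifts both medians equally, to 0.04 for the chaperones and -0.20 for the subunits, so it leaves their contrast unchanged. The chaperones of the 20S core, 4 of 5 lower, had a median of -0.24, which was -0.02 within slide 2 and 0.06 under spike-in scaling. It was -0.06 without sMaf CKO replicate 1 and -0.11 without control replicate 3, and -0.37 without sMaf CKO replicate 3. Pomp, which matures the beta ring, had log2 levels of 5.72, 6.00 and 6.15 in sMaf CKO livers, against 6.51, 6.30 and 6.50 in control livers. It was the only one of the 5 with its groups apart on the probe used, at -0.48 (SE 0.22, adjusted p = 0.313). Psmg2, which pairs with Psmg1 to build the alpha ring, had 1.39, 1.65 and 1.87 in sMaf CKO livers, against 2.03, 1.80 and 1.89 in control livers, a difference of -0.27 (SE 0.22, adjusted p = 0.565). Its other probe read -0.54, with the sMaf CKO arrays (0.13 to 0.42) all below the control arrays (0.59 to 1.16). Psmg4, the partner of Psmg3, had 1.75, 1.67 and 2.08 in sMaf CKO livers, against 1.98, 1.33 and 1.72 in control livers, a difference of 0.16 (SE 0.25, adjusted p = 0.788). On the probes used, the arrays of the groups overlapped in Psmg2 and Psmg4, as they did in Psmg3 (-0.24) and Psmg1 (-0.09).

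The chaperones of the 19S base ATPases, 2 of 3 lower, had a median of -0.30, which was 0.01 under spike-in scaling, -0.14 without sMaf CKO replicate 1 and -0.17 without control replicate 1. Psmd5 had log2 levels of 1.52, 1.83 and 1.45 in sMaf CKO livers, against 2.34, 2.10 and 1.89 in control livers, with the groups apart and a difference of -0.51 (SE 0.23, adjusted p = 0.309). Psmd10, or gankyrin, had 1.01, 0.94 and 0.91 in sMaf CKO livers, against 0.93, 0.92 and 0.90 in control livers. The 6 arrays spanned the narrowest range of the 16 members shown, and the difference was 0.04 (SE 0.19, 95% interval -0.40 to 0.48, adjusted p = 0.939). Psmd9 differed by -0.30, and by -0.46 on its other probe, with overlapping groups on both, and its promoter held the core match.

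Neither regulator had its groups apart on the probe used. Psme4, which encodes the activator PA200, had log2 levels of 4.44, 4.22 and 4.98 in sMaf CKO livers, against 4.55, 5.10 and 5.24 in control livers, a difference of -0.42 (SE 0.29, adjusted p = 0.505). The low value of control replicate 1 set Psme4 apart from most members, for which that array was the highest. The other probes of Psme4 read -0.79 and -0.66, and on each of them the groups were apart. Psmf1, which encodes the inhibitor PI31, had 0.49, 0.48 and 0.07 in sMaf CKO livers, against 0.84, 0.68 and 0.17 in control livers, a difference of -0.21 (SE 0.26, adjusted p = 0.714). Its probes disagreed, with 0.71 and 0.11 on the other probes, so that no direction can be given for Psmf1. The probe at 0.71 was dim, with levels of -5.34 to -3.87, and was well above background on 5 arrays. Psmf1 is counted among the 39 lower members by the probe used. It was the single gene of 13 with several probes for which they differed in sign.

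**Figure D4:**
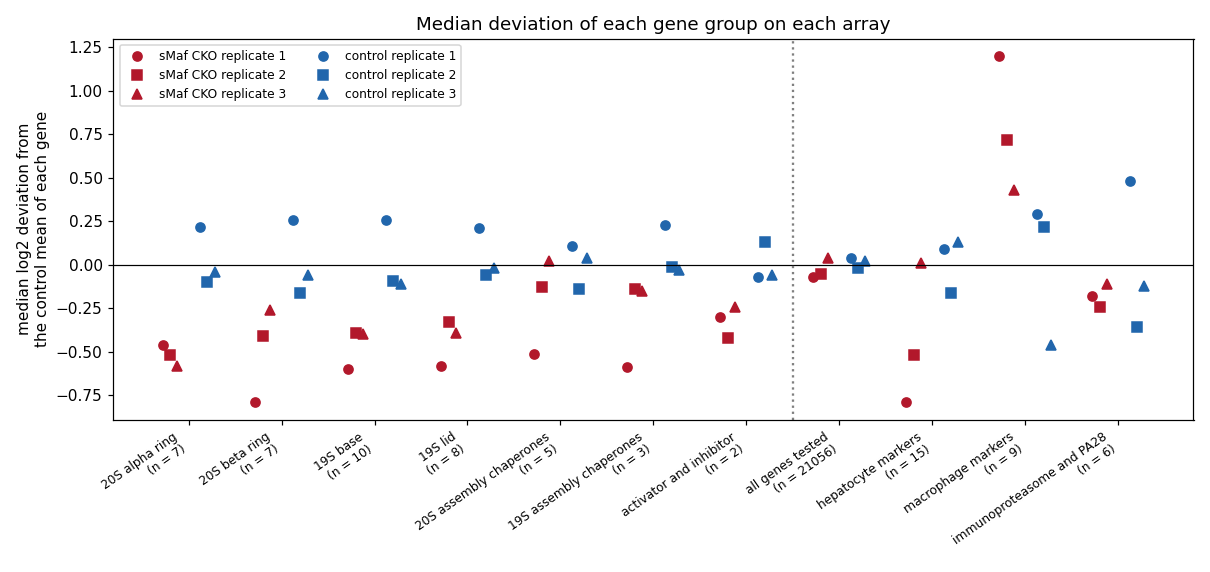
Median log2 deviation from the control mean of each gene, on each array, for the 7 role groups of the proteasome (left of the dotted line) and for all genes tested, hepatocyte and macrophage markers and the immunoproteasome with PA28 (right); red symbols are sMaf CKO arrays and blue ones control arrays. The alpha ring lies at -0.58 to -0.46 on sMaf CKO arrays and at -0.10 to 0.22 on control arrays. Spike-in scaling shifts every difference equally. It leaves the medians of the proteasome groups negative but for the chaperones of the 20S core (0.06) and of the 19S base (0.01). The immunoproteasome is at 0.11 under that shift and is also positive under quantile normalization (0.14).

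Related genes outside the 42 members had smaller medians, and none of them passed the test. The 6 genes of the immunoproteasome and PA28, an inducible form of the core and its activator, had a median of -0.19 with all 6 lower and none with the groups apart, which turned to 0.14 under quantile normalization, 0.11 under spike-in scaling and 0.08 without control replicate 1. It was -0.37 without control replicate 2 and -0.11 without sMaf CKO replicate 2. Psme2, a PA28 subunit, differed by -0.25 (adjusted p = 0.658) and Psme3, another activator, by -0.32 (adjusted p = 0.684). Of NRF1 and its processing factors 11 of 12 were tested, 9 were lower, and the median was -0.18, or 0.12 under spike-in scaling. It was -0.05 without sMaf CKO replicate 3 and -0.28 without sMaf CKO replicate 1. Vcp, the segregase that extracts NRF1 from the endoplasmic reticulum, differed by -0.48 (adjusted p = 0.332) with its groups apart, and Ngly1, which removes the sugars of NRF1, by -0.35 (adjusted p = 0.461) with them overlapping. Nfe2l1 itself had log2 levels of 3.50, 4.10 and 4.12 in sMaf CKO livers, against 4.08, 3.75 and 4.18 in control livers, and these overlapped.

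Ubiquitin genes, shuttle factors and factors that bind the proteasome were divided: 22 of 24 were tested, 15 were lower and 7 higher, with a median of -0.12 that was 0.01 under quantile normalization and 0.18 under spike-in scaling. It was -0.01 without sMaf CKO replicate 1, -0.06 without control replicate 3 and -0.19 without sMaf CKO replicate 3. Ecpas, an adaptor that binds the 26S proteasome, differed by -0.48 (adjusted p = 0.326), with all sMaf CKO arrays below all control arrays. Zfand2a, an arsenite-inducible protein that associates with the proteasome, had log2 levels of 2.04, 2.07 and 1.51 in sMaf CKO livers, against 1.20, 1.47 and 1.22 in control livers, a difference of 0.58 (SE 0.24, adjusted p = 0.286). Its groups were apart in the direction opposite to that of the subunits. Ubb, which encodes a chain of ubiquitin units, differed by 0.16 with overlapping groups. Sem1, a small lid subunit, was counted in this list and not with the lid genes above. It differed by -0.03 with overlapping groups.

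Markers of several liver cell types also differed between the groups, and their part in the result was not tested. The 15 hepatocyte markers tested had a median of -0.42, with 14 lower on the probes used (Hnf4a read 0.02 on another probe). The log2 of their summed signal was 11.40, 11.66 and 12.20 on sMaf CKO arrays, against 12.17, 11.93 and 12.18 on control arrays. Such a sum is weighted towards the brightest markers of a list. Serpina1c, a hepatocyte protease inhibitor, had the smallest p, at -1.31 (adjusted p = 0.094), followed by the fibrinogen gene Fga at -0.72 (adjusted p = 0.164). sMaf CKO replicate 3 overlapped the control arrays in this sum. The 1 hepatocyte marker that was higher, Hpx, differed by 0.70 with its groups apart (limma adjusted p = 0.289). Hepatocyte markers and the 42 members had close medians under most settings: -0.59 and -0.52 within slide 1, and -0.15 and -0.21 under quantile normalization (10 of the 15 markers lower). Under spike-in scaling they were -0.12 and -0.13, which is no separate reading, because that scaling shifts every difference equally. Within slide 2, where each group is 1 array, they were -0.08 and -0.28, with role groups from -0.51 for the alpha ring to -0.02 for the 20S chaperones. The hepatocyte median was -0.24 without sMaf CKO replicate 1 and -0.64 without sMaf CKO replicate 3.

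Macrophage, stellate cell and cholangiocyte markers were higher on the same arrays, though none passed the test. On the probes used, all 9 macrophage markers tested of 10 were higher with a median of 0.82. The other probes of Adgre1 (-0.26) and Itgam (-0.11) went the other way. The log2 of the summed signal of the 9 markers was 7.51 to 8.70 on sMaf CKO arrays, against 6.31 to 7.04 on control arrays. The brightest of them on sMaf CKO arrays, Marco (5.31 to 7.69) and Cd5l (6.52 to 7.11), were at 1.23 to 3.74 and 5.54 to 6.14 on control arrays. The sums that follow are of the same kind. Marco, a scavenger receptor, differed by 3.73 (adjusted p = 0.0858, and 0.0106 with slide as a block), and Cd5l by 0.88 (adjusted p = 0.173). All 8 stellate cell markers were higher with a median of 0.60 and a sum of 6.95 to 7.23 on sMaf CKO arrays, against 6.34 to 6.73 on control arrays. Most of that sum was signal of Dcn, at 6.46 to 6.76 on sMaf CKO arrays, against 5.92 to 6.34 on control arrays. Reln at 0.84 (adjusted p = 0.109) and Lrat at 0.79 (adjusted p = 0.202) had the smallest p of that list. On the probes used, the 6 cholangiocyte markers were all higher as well, with a median of 0.76 (0.45 without sMaf CKO replicate 1). The other probe of Krt7 read -0.04. The sum of the 6 was 3.55 to 5.66 on sMaf CKO arrays, against 3.29 to 3.59 on control arrays, which overlapped. Most of it was signal of Spp1, at 5.58, 3.29 and 3.97 on sMaf CKO arrays, against 2.99, 3.34 and 3.42 on control arrays. Among the cholangiocyte markers the smallest p belonged to Cldn7 at 1.48 (adjusted p = 0.128, and 0.0429 with slide as a block) and Epcam at 0.89 (adjusted p = 0.235). Lymphocyte markers were higher in 7 of 8 (median 0.27, Ptprc at 0.80, Cd3e at -0.47), with sums of 0.86 to 2.34 on sMaf CKO arrays and 1.04 to 1.47 on control arrays, and the median ranged from -0.02 without sMaf CKO replicate 1 to 0.63 without sMaf CKO replicate 2. Erythroid ones were higher in 4 of 5 tested of 7 (median 0.54, Alas2 at 0.77, Hba-a1 at 0.54), with sums of 8.26 to 9.22 on sMaf CKO arrays and 7.83 to 8.98 on control arrays, and the median ranged from 0.05 without control replicate 1 to 0.89 without control replicate 2. Of 8 endothelial markers 5 were lower (Kdr at -0.56, Stab2 at -0.46) and 3 higher (Cdh5 at 0.26, Lyve1 at 0.07 but -0.58 on its other probe, Ehd3 at 0.06). Their median was -0.16, or 0.15 under spike-in scaling, with sums of 5.64 to 6.09 on sMaf CKO arrays and 5.79 to 6.33 on control arrays. That median ranged from -0.29 without control replicate 3 to 0.03 without control replicate 1. No marker tested was at background on all 6 arrays.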

How the data were processed

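Liver RNA of 3 sMaf CKO and 3 control samples was hybridised to 1 array per sample, grouped by the genotype in the labels. Per the file headers, the authors extracted spot intensity values with Agilent Feature Extraction 10.7.3.1 (protocol GE1_107_Sep09) on an array design built on mm9; the processed intensity is background-subtracted within an array. The deposited value table holds log2 values that match the same log2 processed intensity after subtraction of the array's 75th percentile and centring on each probe's median (r = 0.99999 over 40876 probes); its column medians are -0.10, -0.11 and 0.09 for sMaf CKO and 0.05, -0.02 and 0.08 for control.

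Here log2 processed intensity was averaged over the spots of a probe and the 75th percentile of the array was subtracted. Control and outlier spots were left out, no spot was saturated, and 27859 of 41174 probes, well above background on at least 3 arrays, were kept. Accessions named 26682 probes through RefSeq (GRCm38.p6) and left 14492 unmatched; the brightest kept probe stood for a gene. The genotypes were tested against each other in limma 3.58.1 under R 4.3.3 (genotype alone, Benjamini-Hochberg over 21056 genes, threshold 0.05), tested on simulated data.

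Members, lists and tests were chosen with earlier results of these data known. Values on every array are given for the 2 members of each role with the smallest p (1 in roles of 3 or fewer), those that passed a test, those with a positive difference and those whose probes disagree in sign; other lists give the 2 smallest p. Genes named outside this rule, and the splits by signal, were chosen after their values were seen. The number of arrays limits the precision.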

Additional observations from a re-analysis of the deposited data

How the results depend on the processing

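No proteasome member passed an adjusted p under 0.05 in any of the 19 alternatives with a test; the lowest member p was 0.0808 (Psmd1, trend and robust variance settings), and 13 members passed at an unadjusted p under 0.05 (0 under spike-in scaling, 4 under quantile normalization). The count of all genes changed, 114, was 74 with normexp, 22 with quantile normalization, 252 with median scaling, 12 with spike-in scaling, 1 with no filter on dim probes, 267 with probes above background on all 6 arrays, 340 with a slide block, 194 within slide 1, 513 with array weights, 308 with trend and robust settings and 3 at an adjusted p under 0.01. It was 3 without sMaf CKO replicate 1, 11 without sMaf CKO replicate 2, 294 without sMaf CKO replicate 3, 6 without control replicate 1 and 22 without control replicate 3. With the replicate number as a block it was 295, with 0 members. Same-numbered arrays deviated together at 0.064, 0.166 and 0.424, and sMaf CKO replicate 1 correlated best with control replicate 2 (0.292). The highest value, 0.424, was that of the third replicates, which share slide 2. Pairs on slide 1 were all positive (0.015 to 0.292) and pairs across slides all negative (-0.372 to -0.066). Deviations were taken from the mean of each genotype, so these signs are not independent of each other. No pairing was taken from the number in the main fit. The cause of the shifts in these counts was not tested.

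The member median was -0.48 with the mean of a gene's kept probes, against -0.43 with the brightest. It was -0.21 under quantile normalization and -0.13 under spike-in scaling. By role, in that order, it was -0.34 and -0.26 for the alpha ring, -0.13 and -0.10 for the beta ring, -0.27 and -0.17 for the base, -0.19 and -0.14 for the lid, and -0.18 and -0.02 for the activator and inhibitor, whose median was -0.21 with the mean of a gene's probes and -0.18 within slide 2. Spike-in scaling gave 0.06 for the 20S chaperones (-0.02 within slide 2) and 0.01 for the 19S chaperones.

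Single differences turned sign as follows, and 29 members turned in no alternative. Under spike-in scaling: Psma2 0.08, Psmb2 0.06, Psmb6 0.00, Psmc4 0.22, Psmc5 0.03, Psmg1 0.21, Psmg2 0.03, Psmg3 0.06, Psmd9 0.01, Psmf1 0.09 and Psme2 0.05. Under quantile normalization: Psma2 0.14, Psmb6 0.01, Psmc4 0.08 and Psme2 0.13. Within slide 2: Psma2 0.03, Psmb3 0.03, Psmb5 0.03, Psmb6 0.36, Psmc4 0.16, Psmc5 0.07, Psmg1 0.03 and Mafk -0.29. With array weights Psmg1 was 0.01 and Maff -0.28, and with the mean of its probes Psmf1 was 0.20. Over arrays left out, Psmc4 ranged from -0.15 to 0.05, Psmg1 from -0.18 to 0.06, Psmg4 from -0.02 to 0.31, Cd3e from -0.75 to 0.03, Maff from -0.37 to 0.52, Mafk from -0.07 to 0.44 and Psme3 from -0.60 to 0.03.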
